A study of Mus musculus with 4 samples.

Results

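Egr1, Egr2, Egr3, Nr4a1, Nr4a2, Nr4a3, Nfatc1, Nfatc2, Nfatc3 and Nfil3 encode transcription factors that act downstream of the T cell receptor, and their RNA was compared across 4 kinds of mouse CD4+ T cell. The 10 genes were taken by symbol from a table of 34745 genes, and all 10 were found. All cells were labelled as splenic CD4+ T cells of C57BL/6 mice, wild type in genotype, and each of the 4 groups was sequenced as 1 library. The Th17 library was made from cells kept for 3 days in Th17 conditions, and the Treg library from cells kept for 3 days in Treg conditions. The Th0 library was made from naive cells that had received CD3 and CD28 stimulation for 3 days, and the naive library from CD4+ cells selected straight from the spleen, with no culture. The sources used here do not give the cytokines, the number, age or sex of the animals, or whether Th17 and Treg cells received the same stimulus as Th0 cells. With 1 library a group there is no replicate, so no difference between conditions could be tested and every error given is counting error only.

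When a T cell receptor is engaged, calcium enters the cell and activates the phosphatase calcineurin, which strips phosphate from NFAT proteins and lets them enter the nucleus. The same receptor signal runs through the ERK kinases to SRF and its Elk partners, which switch on Egr1, Egr2 and Egr3 within minutes, while calcium acting through MEF2 and CREB switches on Nr4a1, Nr4a2 and Nr4a3. Egr and Nr4a genes are immediate early genes, transcribed without new protein synthesis and usually for a short time, so their RNA reports recent signalling. Egr2, Egr3, the Nr4a receptors and NFAT acting without AP-1 are also known from anergic, exhausted and regulatory T cells, in which activation is held in check. Nfil3 is a basic leucine zipper repressor that is tied to the circadian clock and is known in mice to restrain Th17 differentiation.

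The libraries held 10256627 to 12414372 counts. Levels are given in CPM, the usual unit of counts scaled to a common library size, after TMM scaling, whose factors ran from 0.850 in Th0 cells to 1.08 in Treg cells, and each level has a 95% exact Poisson interval. The summed level of 9 T cell markers was 3849 CPM in Th17 cells, 4124 CPM in Treg cells, 4483 CPM in Th0 cells and 3416 CPM in naive cells. Foxp3, the defining factor of regulatory T cells, stood at 11.3 CPM in Th17 cells, 51.5 CPM in Treg cells, 1.37 CPM in Th0 cells and 129 CPM in naive cells. Among the cultured cells Foxp3 was highest in Treg cells, but the naive library held the most Foxp3 and also carried markers of other cell types. The 9 macrophage and monocyte markers summed to 31.7 to 46.5 CPM in the cultured libraries and 3864 CPM in the naive one, and the 7 neutrophil markers to 1.26 to 4.42 CPM in the cultured libraries and 1443 CPM in the naive one. The 9 B cell markers summed to 25.7 to 118 CPM in cultured and 995 CPM in naive cells, the 7 dendritic cell markers to 9.04 to 27.9 CPM in cultured and 341 CPM in naive cells, and the 7 CD8 and NK markers to 45.3 to 76.1 CPM in cultured and 102 CPM in naive cells. Cd209a and Siglech (dendritic cells) and Elane (neutrophils) had no count in any cultured library, and all were detected in the naive one. In bulk RNA, fewer cells of a type and less RNA per cell cannot be told apart. The part of these other cells in the differences from the naive library was not tested.

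A gene was called when its level differed by at least 2-fold after adding 1 CPM and the 95% exact interval of the count ratio excluded 1. All 10 genes had at least 10 counts in 1 of the libraries compared, so all entered each of the 6 comparisons. The narrowest comparison was Th17 over Treg, in which 3 of the 10 genes were called, beside 3.15% of 13346 tested genes. Egr2 and Nfil3 were the 2 called higher (1.91% of all genes) and Nr4a3 the 1 called lower (1.24%). In Th17 over Th0 cells 7 of 10 were called, beside 32.5% of all genes tested, with 5 higher (20.1% of all) and 2 lower (12.4%). In Treg over Th0 cells 5 of 10 were called, beside 32.2%, with 3 higher (20.2%) and 2 lower (12%). Over Th0 cells, Egr1, Egr3 and Nfatc2 were higher and Nr4a2 was lower in both differentiated cultures. In Th17 over naive cells 6 of 10 were called, beside 33.1%, with 2 higher (15.5%) and 4 lower (17.7%). In Treg over naive cells 6 of 10 were called, beside 31.8%, with 2 higher (14.9%) and 4 lower (16.9%). In Th0 over naive cells 7 of 10 were called, beside 45.7%, with 2 higher (18.5%) and 5 lower (27.2%). The comparisons share libraries and the 10 genes were chosen with earlier results of these data known, so the excess over the background is a description. With TMM scaling each comparison held calls in both directions, but in Treg over Th0 cells both lower calls, of Nr4a2 and Nfatc3, were made under 2 of 4 scalings, and with library totals there were 3 higher and 0 lower.

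**Figure D1:**
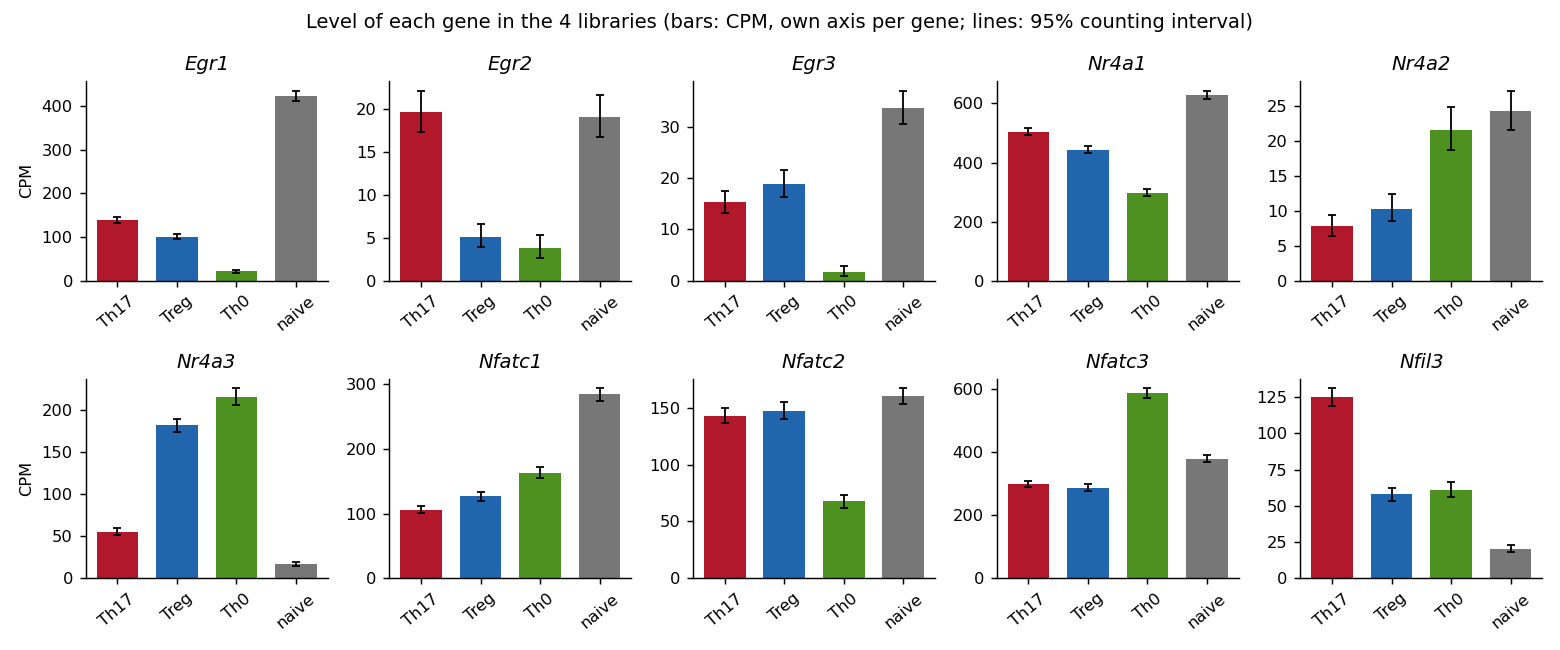
Level of each of the 10 genes in the Th17, Treg, Th0 and naive libraries, as CPM on an axis of its own for each gene that starts at 0. Bars are single libraries and lines are 95% Poisson counting intervals, and Egr1, Egr3 and Nr4a1 show their tallest bar in naive cells, Nr4a3 and Nfatc3 in Th0 cells and Nfil3 in Th17 cells.

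The 3 Egr genes encode zinc finger factors that bind GC-rich DNA. Egr1 (ENSMUSG00000038418, chromosome 18, 34859823 to 34864984 in GRCm38), the best known immediate early factor of the family, stood at 139 CPM in Th17 cells, 101 CPM in Treg cells, 21.2 CPM in Th0 cells and 424 CPM in naive cells. Uncultured cells held by far the most and Th0 cells the least, and every pair of neighbours in the order naive, Th17, Treg and Th0 was apart beyond counting error. It was 6.57-fold higher in Th17 than in Th0 cells (95% interval 5.65 to 7.69) and 4.75-fold higher in Treg than in Th0 cells (4.06 to 5.58), and 20.0-fold lower in Th0 than in naive cells (17.3 to 23.3). The differentiated cultures were closer to naive cells, 3.04-fold lower in Th17 cells (2.89 to 3.21) and 4.21-fold lower in Treg cells (3.94 to 4.50). Between Th17 and Treg cells it differed by only 1.38-fold (1.28 to 1.49), which was not called.

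Egr2 (ENSMUSG00000037868, chromosome 10, 67535475 to 67542188), known with Egr3 for inducing inhibitors of receptor signalling, stood at 19.7 CPM in Th17 cells, 5.14 CPM in Treg cells, 3.78 CPM in Th0 cells and 19.1 CPM in naive cells. Th17 and naive cells were not apart beyond counting error, nor were Treg and Th0 cells at the low end, so the order differed from that of Egr1. It was 3.83-fold higher in Th17 than in Treg cells (2.86 to 5.19) and 5.20-fold higher in Th17 than in Th0 cells (3.61 to 7.72). Relative to naive cells it was 3.72-fold lower in Treg cells (2.77 to 5.06) and 5.06-fold lower in Th0 cells (3.50 to 7.52), and within 1.03-fold in Th17 cells (0.859 to 1.23). In Treg over Th0 cells the ratio was 1.36-fold with an interval of 0.871 to 2.16, so at 57 and 33 counts a difference could not be seen.

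Egr3 (ENSMUSG00000033730, chromosome 14, 70077445 to 70080157 in the deposited table) stood at 15.3 CPM in Th17 cells, 18.8 CPM in Treg cells, 1.72 CPM in Th0 cells and 33.8 CPM in naive cells. Both differentiated cultures were well above Th0 cells and below naive cells. Th0 cells held only 15 counts, and the ratios were 8.92-fold higher in Th17 cells (5.28 to 16.2) and 11.0-fold higher in Treg cells (6.50 to 20.0). Relative to naive cells Egr3 was called 2.21-fold lower in Th17 cells (1.86 to 2.62) and 19.7-fold lower in Th0 cells (11.8 to 35.5), and the 1.79-fold difference in Treg cells (1.51 to 2.13) was not called. The Th17 call over naive cells was lost with a pseudocount of 4 CPM (log2 ratio -0.97). Egr3 was slightly lower in Th17 than in Treg cells, by 1.23-fold (1.009 to 1.501), the opposite direction to Egr2 in the same libraries. Within a library, where scaling plays no part, the ratio of Egr3 to Egr2 FPKM was 2.98 in Th17 cells (2.47 to 3.60), 14.1 in Treg cells (10.4 to 19.2), 1.74 in Th0 cells (0.879 to 3.30) and 6.78 in naive cells (5.76 to 7.99). Treg cells thus held the most Egr3 for their Egr2 and the Th17 interval lay wholly below it. The size of this ratio, however, rests on the length behind the FPKM. Per kilobase of the longest coding transcript, Egr3 was below Egr2 in Th17 cells (3.89 against 6.63 CPM) and in Th0 cells (0.436 against 1.27 CPM). It was above Egr2 in Treg cells (4.78 against 1.73 CPM) and in naive cells (8.58 against 6.44 CPM). In the deposited table, however, the Egr3 locus spans 2713 bases, fewer than the 3940 of that transcript. Its counts may thus not cover the whole transcript, and dividing by 3940 bases may understate Egr3. Which length fits the counts was not tested, so no order between Egr3 and Egr2 is given.

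**Figure D2:**
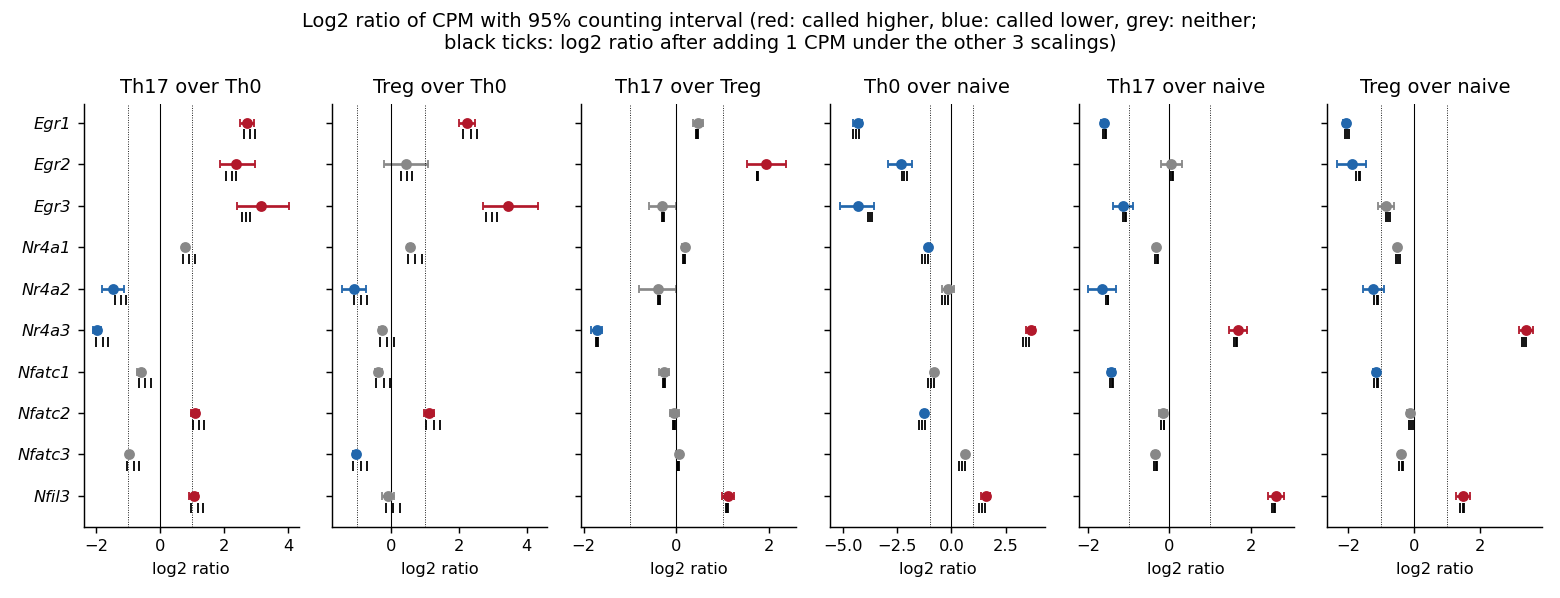
Log2 ratio of CPM of the 10 genes in 6 comparisons, with the 95% counting interval as a bar, red for genes called higher, blue for genes called lower and grey for the rest, and dotted lines at a 2-fold difference. Black ticks give the log2 ratio after adding 1 CPM under the other 3 scalings: in Th17 over Treg they fall close together, while in Treg over Th0 they spread and lie on both sides of the 2-fold line for Nr4a2 and Nfatc3.

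The 3 Nr4a genes encode orphan nuclear receptors whose activity is set largely by how much of them is made. Nr4a1 (ENSMUSG00000023034, chromosome 15, 101266846 to 101274792), also called Nur77 and widely used as a reporter of T cell receptor signalling, stood at 504 CPM in Th17 cells, 443 CPM in Treg cells, 298 CPM in Th0 cells and 629.7 CPM in naive cells. The order was that of Egr1, with naive cells highest and Th0 cells lowest and all neighbours apart, but the whole span was 2.12-fold where that of Egr1 was 20.0-fold. Nr4a1 was 1.70-fold higher in Th17 than in Th0 cells and 1.49-fold higher in Treg than in Th0 cells, both short of a call, and was called lower in Th0 than in naive cells by 2.12-fold (2.02 to 2.21). With library totals in place of TMM factors the log2 ratio of Th17 over Th0 cells was 1.07, which would be a call.

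Nr4a2 (ENSMUSG00000026826, chromosome 2, 57106830 to 57124003), also called Nurr1, stood at 7.77 CPM in Th17 cells, 10.3 CPM in Treg cells, 21.6 CPM in Th0 cells and 24.3 CPM in naive cells. Th0 and naive cells were not apart beyond counting error, and both differentiated cultures were below them. Against Th0 cells this was the reverse of Egr1 and Egr3, while their levels, too, were below that of naive cells in both cultures. It was 2.78-fold lower in Th17 than in Th0 cells (2.18 to 3.58), and relative to naive cells 3.13-fold lower in Th17 cells (2.49 to 3.96) and 2.37-fold lower in Treg cells (1.90 to 2.96). The call in Treg over naive cells was lost with a pseudocount of 4 CPM (log2 ratio -0.99). It was also lost with the authors' FPKM (-0.85), to which 1 FPKM was added. The FPKM were 1.75 in Treg cells and 3.93 in naive cells, low enough for the added 1 to shrink the ratio. The 2.10-fold lower level in Treg than in Th0 cells (1.66 to 2.68) was called under 2 of 4 scalings.

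Nr4a3 (ENSMUSG00000028341, chromosome 4, 48045153 to 48086447), also called Nor1, stood at 55.2 CPM in Th17 cells, 182 CPM in Treg cells, 216 CPM in Th0 cells and 17.3 CPM in naive cells. All cultured cells were above naive cells, Treg and Th0 cells were close to each other, and Th17 cells stood apart from both. It was 3.29-fold lower in Th17 than in Treg cells (3.02 to 3.59) and 3.91-fold lower in Th17 than in Th0 cells (3.59 to 4.27). Against naive cells it was 3.19-fold higher in Th17 cells, 10.5-fold higher in Treg cells and 12.5-fold higher in Th0 cells. The log2 ratio of Treg over Th0 cells was -0.25 and changed sign, to 0.10, with library totals, so no order between those libraries is given. Within a library the ratio of Nr4a3 to Nr4a1 FPKM was 0.0246 in Th17 cells (0.0227 to 0.0265), 0.0921 in Treg cells (0.0874 to 0.0970), 0.163 in Th0 cells (0.154 to 0.173) and 0.00617 in naive cells (0.00535 to 0.00707). The Nr4a3 part of the family was thus largest in Th0 cells and smallest in naive cells, with all 4 intervals apart.

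Because the Nr4a genes are switched on by signals that reach CREB, the DNA just before their start sites is shown, from RefSeq (build GRCm38.p6). That of Nfil3, which like Nr4a3 was called in Th17 over Treg cells, is given for comparison. Each run reads 5′ to 3′ on the gene's strand and ends at the base before the RefSeq start or, for Nr4a3 and Nfil3, before the first GENCODE exon. Capitals mark TGACG or its reverse CGTCA, the core of the cAMP response element to which CREB binds, and the Egr motif GCGNGGGCG on either strand.
Nr4a1 (chr15:101266596-101266845, + strand): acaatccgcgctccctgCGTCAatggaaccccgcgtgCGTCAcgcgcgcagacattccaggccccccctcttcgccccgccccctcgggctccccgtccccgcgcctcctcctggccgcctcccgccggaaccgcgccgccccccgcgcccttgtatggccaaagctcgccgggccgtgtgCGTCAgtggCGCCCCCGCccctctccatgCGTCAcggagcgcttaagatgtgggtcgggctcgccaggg
Nr4a2 (chr2:57124004-57124253, - strand): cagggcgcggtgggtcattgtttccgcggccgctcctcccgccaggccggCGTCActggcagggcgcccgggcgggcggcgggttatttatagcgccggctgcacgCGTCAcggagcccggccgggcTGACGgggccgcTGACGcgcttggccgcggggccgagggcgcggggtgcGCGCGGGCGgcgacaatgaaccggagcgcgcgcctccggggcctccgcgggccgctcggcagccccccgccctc
Nr4a3 (chr4:48045055-48045152, + strand): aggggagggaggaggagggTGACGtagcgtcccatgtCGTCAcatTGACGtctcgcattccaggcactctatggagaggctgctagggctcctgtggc
Nfil3 (chr13:52981074-52981289, - strand): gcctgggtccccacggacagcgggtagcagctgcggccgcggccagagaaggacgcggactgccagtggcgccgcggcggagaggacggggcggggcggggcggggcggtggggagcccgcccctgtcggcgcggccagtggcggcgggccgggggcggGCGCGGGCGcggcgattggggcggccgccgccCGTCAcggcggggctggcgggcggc

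In the 250 bases before the RefSeq start, TGACG or CGTCA was found 4 times in each of Nr4a1, Nr4a2 and Nr4a3, where 1 of the 4 in Nr4a3 lies beyond the bases printed. It was found 1 time in Nfil3 and not in the windows of Egr2, Nfatc2 or Nfatc3. Of 32536 distinct RefSeq windows of that length, 17.9% held at least 1 and 45 (0.138%) held at least 4. This core was searched after the sequences had been read. Bases G and C made up 74.4% of the window of Nr4a1, 80% of that of Nr4a2 and 63.6% of that of Nr4a3. The windows counted beside them were not matched for this, so the share may differ among windows of like content. The Egr motif had 1 match each in Nr4a1, Nr4a2 and Nfil3, and matched in 4.74% of all windows. The full cAMP response element TGACGTCA, the AP-1 site TGANTCA, the Nr4a site AAAGGTCA, the Nfil3 sites TTACGTAA and TTATGTAA and the CArG box to which SRF binds had no match in the 7 windows of the 10 genes that were read. The short NFAT core GGAAA matched 1 time in Nr4a2 and 3 times in Nfatc2, and matched in 55.7% of all windows. These matches describe letters on both strands of short windows and say nothing of binding. Among the genes with 4 matches of the TGACG core, Nr4a1 was highest in naive cells and Nr4a3 was lowest there. The part of this core in their levels was not tested. In the annotated 3′ untranslated regions, the pentamer ATTTA, a letter pattern of short-lived mRNAs, occurred 3 times in the 543 bases of Nr4a1, or 5.53 per kilobase, a higher density than in 95.4% of 12673 genes. The other 9 genes ran from 0 per kilobase in Nfil3 to 2.65 per kilobase in Egr3, and the median of all genes was 1.27 per kilobase.

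The 3 Nfatc genes encode the calcium-regulated NFAT proteins, which exist before stimulation and are controlled mainly by where they are in the cell, so RNA does not report their activity. Nfatc1 (ENSMUSG00000033016, chromosome 18, 80606205 to 80713071), whose short isoform is known to be induced by NFAT itself, stood at 106 CPM in Th17 cells, 126 CPM in Treg cells, 163 CPM in Th0 cells and 284 CPM in naive cells. Every culture was below naive cells. Against Th0 cells it was not called in either differentiated culture, with log2 ratios of -0.62 in Th17 cells and -0.36 in Treg cells, and with library totals the Treg ratio was -0.017, so no order between Treg and Th0 cells is given. It was called lower than in naive cells by 2.69-fold in Th17 cells (2.52 to 2.86) and by 2.25-fold in Treg cells (2.11 to 2.39), and the 1.75-fold difference of Th0 from naive cells was not called. Counts per gene do not separate its isoforms, and an annotated antisense RNA lies within it.

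Nfatc2 (ENSMUSG00000027544, chromosome 2, 168476410 to 168601657), also called NFAT1, stood at 143 CPM in Th17 cells, 147.5 CPM in Treg cells, 67.5 CPM in Th0 cells and 159.9 CPM in naive cells. Th0 cells alone were low, and Th17 and Treg cells were not apart beyond counting error. It was 2.11-fold higher in Th17 than in Th0 cells (1.92 to 2.32), 2.18-fold higher in Treg than in Th0 cells (1.99 to 2.40) and 2.37-fold lower in Th0 than in naive cells (2.16 to 2.60), under 4 of 4 scalings each. The ratio of Nfatc2 to Nfatc1 FPKM within a library was 0.595 in Th17 cells, 0.515 in Treg cells, 0.183 in Th0 cells and 0.248 in naive cells.

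Nfatc3 (ENSMUSG00000031902, chromosome 8, 106059603 to 106130537), also called NFAT4, stood at 298 CPM in Th17 cells, 288 CPM in Treg cells, 587 CPM in Th0 cells and 379 CPM in naive cells. Th0 cells held the most, and Th17 and Treg cells were not apart beyond counting error. The 1.55-fold higher level in Th0 than in naive cells (1.49 to 1.61) was not called. It was 2.04-fold lower in Treg than in Th0 cells (1.95 to 2.13), called under 2 of 4 scalings, and 1.97-fold lower in Th17 than in Th0 cells (1.89 to 2.05), which was not called. Esrp2, which overlaps Nfatc3 on the other strand, had 9 counts in Th17 cells, 8 in Treg cells, 3 in Th0 cells and 0 in naive cells, against 3189 to 5125 counts for Nfatc3.

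Nfil3 (ENSMUSG00000056749, chromosome 13, 52967209 to 52981073) stood at 125 CPM in Th17 cells, 57.8 CPM in Treg cells, 60.8 CPM in Th0 cells and 20.5 CPM in naive cells. Th17 cells held the most, Treg and Th0 cells were not apart, and naive cells held the least. It was 2.16-fold higher in Th17 than in Treg cells (1.97 to 2.37) and 2.05-fold higher in Th17 than in Th0 cells (1.86 to 2.27), the second under 3 of 4 scalings. Over naive cells it was 6.09-fold higher in Th17 cells (5.33 to 6.99), 2.82-fold higher in Treg cells and 2.97-fold higher in Th0 cells. Nfil3 and Nr4a3 were the only members of the 10 called higher than naive in any culture, and both were so in all 3. Those 3 comparisons share the naive library.

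Th17 and Treg cells differed little from each other, and the 3 genes called between them lay in the tails of all genes tested. Egr2 had a log2 ratio above that of 99.7% of the 13346 genes tested and Nfil3 above that of 98.5%, while Nr4a3 lay so low that 0.202% of genes lay below it. The other 7 lay between log2 ratios of -0.36 for Nr4a2 and 0.46 for Egr1. The median log2 ratio of the 10 was 0.0016, and that of all genes tested was -0.0013. All 3 calls held under 4 of 4 scalings. Non-T cell markers also differed between these libraries, since B cell markers summed to 86.0 CPM in Th17 and 25.7 CPM in Treg cells, and macrophage markers to 33.1 CPM in Th17 and 46.5 CPM in Treg cells. Their part in these results was not tested.

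**Figure D3:**
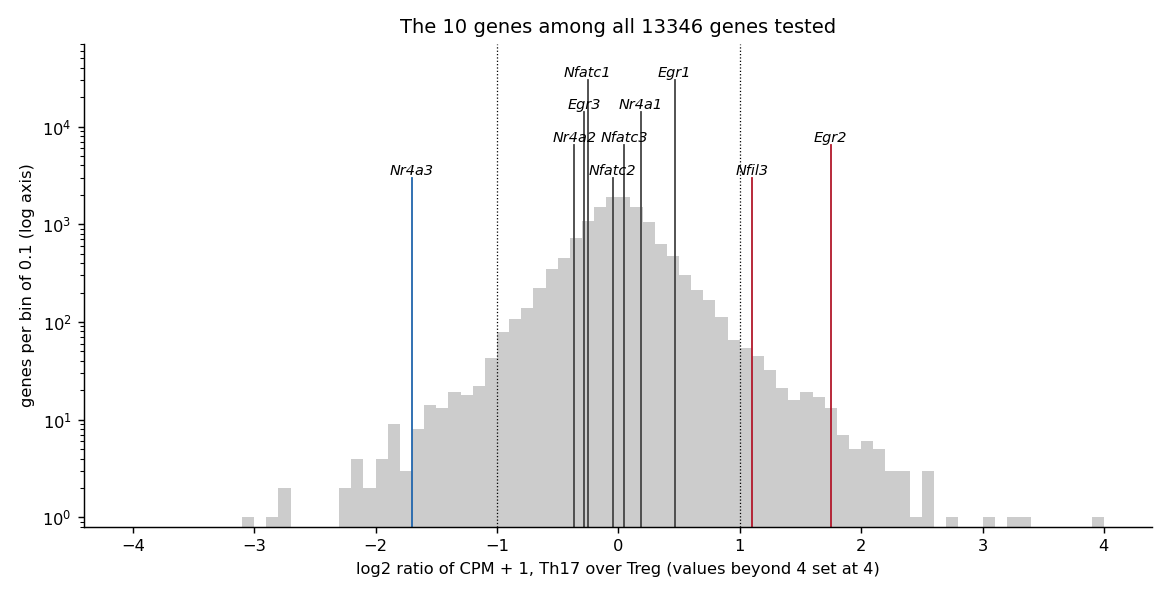
Distribution of the log2 ratio of CPM + 1, Th17 over Treg, over 13346 genes (grey bars, number of genes per 0.1 on a log axis), with a line for each of the 10 genes and dotted lines at a 2-fold difference. Egr2 and Nfil3 (red) lie beyond the line on the right and Nr4a3 (blue) beyond it on the left, with the other 7 in the body of the distribution.

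Levels of different genes can be set side by side only per length, and the length behind the deposited FPKM was not that of an mRNA for every gene. It was 7520 bases for Egr1, whose locus spans 5162, and 1416 bases for Egr3, whose longest coding transcript has 3940. Shares were therefore taken both from FPKM and from CPM per kilobase of the longest GENCODE coding transcript. Nr4a1 made up 97.0% of the Nr4a FPKM in Th17 cells, 90.8% in Treg cells, 83.9% in Th0 cells and 97.9% in naive cells. By the longest transcript the share of Nr4a1 was 94.3% in Th17 cells, 83.4% in Treg cells, 72.7% in Th0 cells and 96.2% in naive cells, so Nr4a1 led its family either way. Nfatc3 led the NFAT genes with 70.0% of their FPKM in Th17 cells, 66.5% in Treg cells, 80.1% in Th0 cells and 58.6% in naive cells. By the longest transcript the share of Nfatc3 was 53.7% in Th17, 50.05% in Treg, 69.1% in Th0 and 43.4% in naive cells. Nfatc1 was then close to it in naive cells, at 40.6%. Egr1 led the Egr genes by the longest transcript, with 74.7% in Th17 cells, 77.5% in Treg cells, 73.4% in Th0 cells and 86.3% in naive cells. By FPKM, however, Egr1 and Egr3 were level in Treg cells, at 48.4% and 48.2%, so the order of those genes there rests on the length used. The share of Egr3 by the longest transcript may be too low, since its deposited locus spans only 2713 bases.

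**Figure D4:**
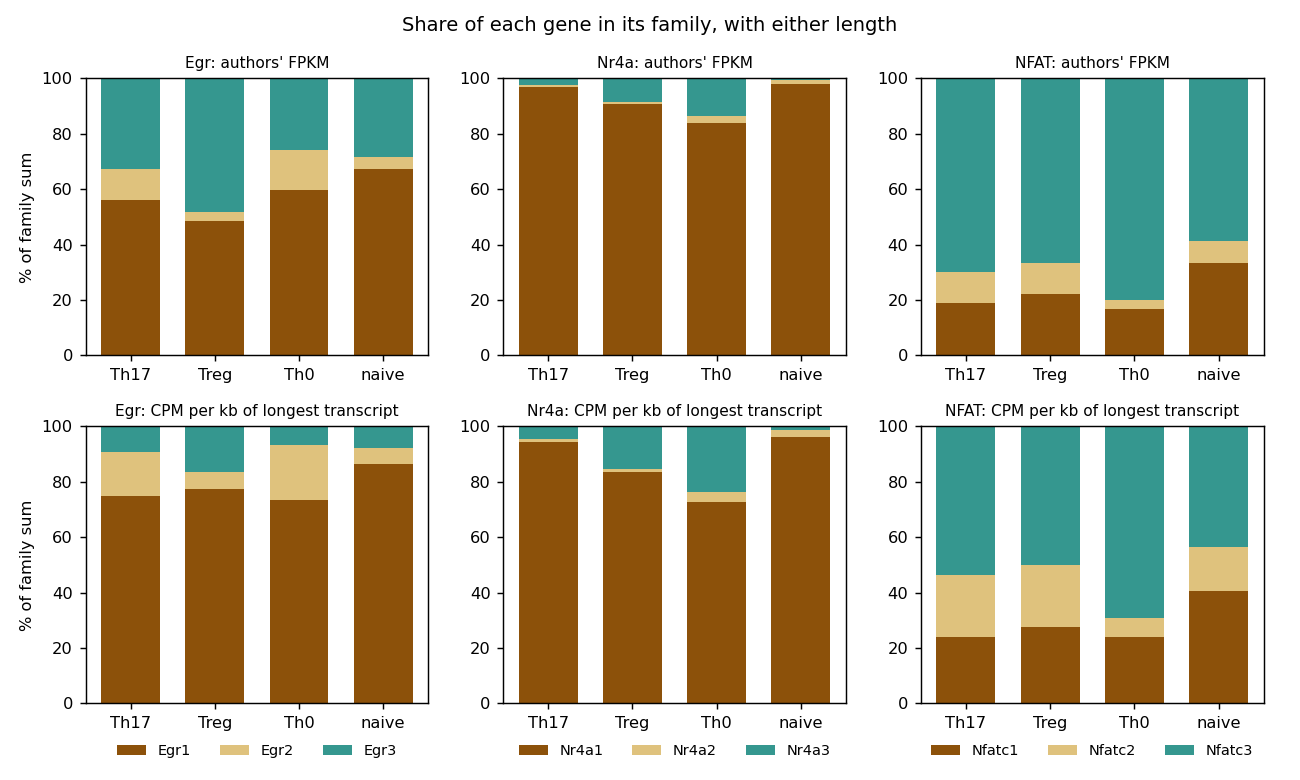
Share of each gene in the summed per-length level of its family in Th17, Treg, Th0 and naive cells, from the authors' FPKM (top row) and from CPM per kilobase of the longest coding transcript (bottom row). Nr4a1 and Nfatc3 fill most of their families in both rows except for Nfatc3 in naive cells, at 43.4% in the bottom row. Egr3 has a smaller share in the bottom row, which may understate it because its deposited locus is shorter than that transcript.

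Genes of the pathway around the 10 factors were read from 8 lists. The list medians of the log2 ratio lay between -0.15 and 0.14 in Th17 over Treg cells, between -0.47 and 0.93 in Th17 over Th0 cells, where all genes had 0.09, and between -0.36 and 0.92 in Treg over Th0 cells, where all genes had 0.08. Among 14 genes of calcium entry and calcineurin, none was called in Th17 over Treg cells, where 3.15% of all genes were, and 2 were higher and 1 lower in Th17 over Th0 cells, where 32.5% of all genes were called. In Treg over Th0 cells 1 was higher and 1 lower, beside 32.2% of all genes called, and in Th0 over naive cells 2 were higher and 2 lower, beside 45.7%. Each of these counts was below the share over all genes, while in Th17 over naive cells 2 were higher and 4 lower, beside 33.1%. Ppp3cc, a catalytic subunit of calcineurin, stood at 129.5 CPM in Th17 cells, 116 CPM in Treg cells, 197.5 CPM in Th0 cells and 47.8 CPM in naive cells, and was called higher in Th0 than in naive cells.

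Of 13 genes that inhibit calcineurin or NFAT or are NFAT kinases, 2 were higher and 0 lower among 10 tested in Th17 over Th0 cells, and 3 were higher and 1 lower among 11 tested in Treg over Th0 cells. Among all genes 20.1% were called higher in the first comparison and 20.2% in the second, so these counts were near the background. Rcan3, a calcineurin inhibitor, stood at 185 CPM in Th17 cells, 228 CPM in Treg cells, 56.1 CPM in Th0 cells and 60.6 CPM in naive cells. Homer3, which competes with calcineurin for NFAT, stood at 40.3 CPM in Th17 cells, 44.3 CPM in Treg cells, 9.39 CPM in Th0 cells and 6.61 CPM in naive cells. Both were thus high in the differentiated cultures and low in Th0 and naive cells, a pattern that none of the 10 factors had. Homer2 had no count in the 3 cultured libraries and 9 in naive cells.

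Other family members and partners numbered 7. Egr4 and Nfatc4 had at most 6 counts in any library and were not tested. Nfat5, the salt-responsive relative that calcineurin does not control, stood at 269.9 CPM in Th17 cells, 689 CPM in Treg cells, 274 CPM in Th0 cells and 241 CPM in naive cells. It was the only one of the 5 tested genes called in Th17 over Treg cells, where 3.15% of all genes were called. Nab2, a corepressor of Egr proteins and itself a known Egr target, stood at 114 CPM in Th17 cells, 99.9 CPM in Treg cells, 54.7 CPM in Th0 cells and 73.9 CPM in naive cells. Nab1 and Nab2 were called higher in Th17 than in Th0 cells under 3 of 4 scalings each, with log2 ratios of 1.01 and 1.05. In Treg over Th0 cells, where Egr1 and Egr3 were also called higher, neither was called with TMM factors, with log2 ratios of 0.71 for Nab1 and 0.86 for Nab2. Library totals moved the median of all genes by 0.31 in that comparison, so both of these results rest on the scaling. Between Th17 and Treg cells the log2 ratios were only 0.30 for Nab1 and 0.19 for Nab2.

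Of 13 other immediate early genes, 5 were higher and 0 lower in Th17 over Th0 cells, and 6 were higher and 1 lower in Treg over Th0 cells. Among all genes 20.1% were higher and 12.4% lower in Th17 over Th0 cells, and 20.2% higher and 12% lower in Treg over Th0 cells. In Th0 over naive cells 0 were higher and 12 lower, where 27.2% of all genes were lower, with a median log2 ratio of -3.04 beside -0.13 for all genes. In Th17 over Treg cells 1 of the 13 was called, beside 3.15% of all genes, namely Ier3, at 78.7 CPM in Th17 cells and 25.1 CPM in Treg cells. Fos stood at 9.98 CPM in Th17 cells, 11.1 CPM in Treg cells, 5.38 CPM in Th0 cells and 802 CPM in naive cells, and Egr1, Egr2, Egr3 and Nr4a1 shared its direction in Th0 over naive cells. Nr4a3 did not, with 12.5-fold more in Th0 than in naive cells. Of 15 genes that feed the ERK, SRF and MEF2 inputs, none was called in Th17 over Treg cells, where 3.15% of all genes were. In Th17 over Th0 cells 3 were higher and 3 lower, and in Treg over Th0 cells 2 higher and 2 lower, beside 32.5% and 32.2% of all genes called. Elk3, an SRF partner, stood at 91.5 CPM in Th17 cells, 111 CPM in Treg cells, 11.7 CPM in Th0 cells and 70.5 CPM in naive cells, and like Egr1 and Egr3 was called higher in Th17 and Treg than in Th0 cells. Elk4, another SRF partner, went the other way, at 81.5 CPM in Th17 cells, 92.6 CPM in Treg cells, 245 CPM in Th0 cells and 167 CPM in naive cells, and was called lower in both cultures than in Th0 cells under 4 of 4 scalings.

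**Figure D5:**
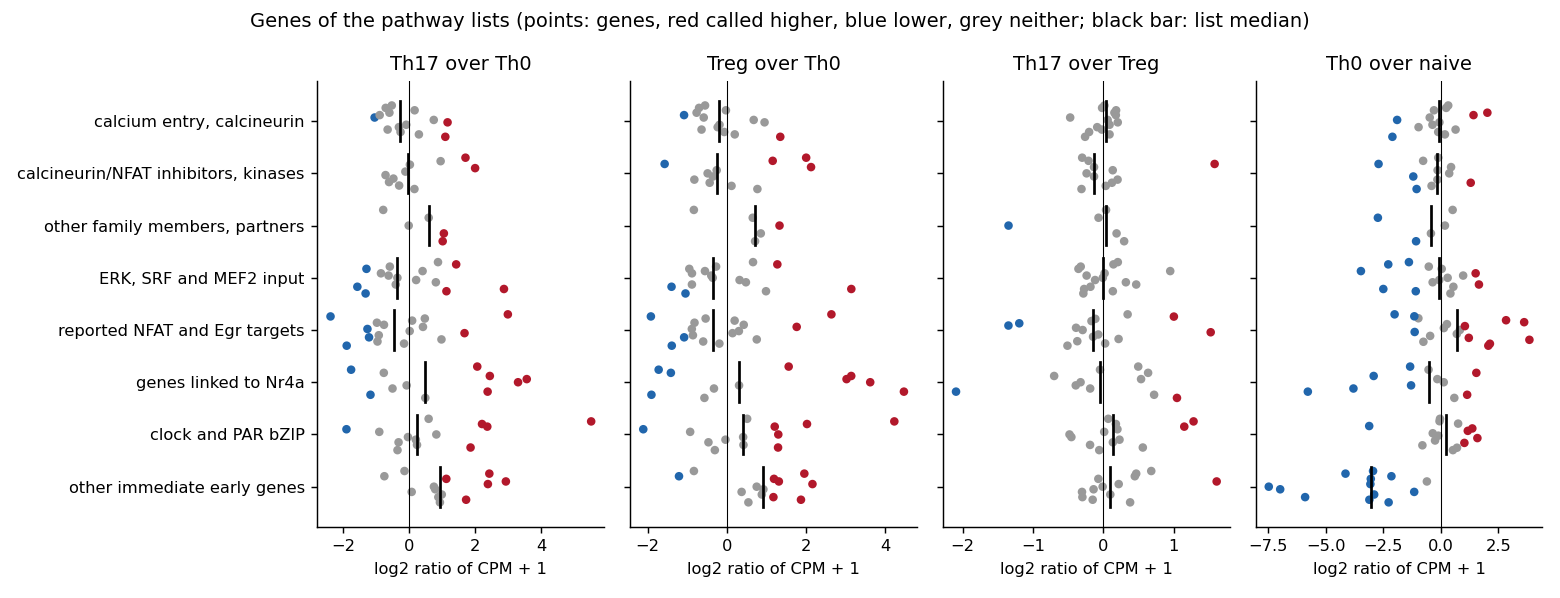
Log2 ratio of CPM + 1 of the genes of 8 pathway lists in Th17 over Th0, Treg over Th0, Th17 over Treg and Th0 over naive cells, with a point for each tested gene (red called higher, blue called lower, grey neither) and a black bar at the list median. The bar of the other immediate early genes stands at -3.04 in Th0 over naive cells, and in Th17 over Treg cells the points of most lists lie near 0.

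Of 18 genes reported as targets of NFAT or Egr, 2 were called higher and 2 lower among 15 tested in Th17 over Treg cells, where 1.91% of all genes were higher and 1.24% lower. Of the 2 higher, 1 had a log2 ratio of only 1.004 and was called under 2 of 4 scalings. Of the 2 lower, 1 was Il2, with 21 counts in Th17 cells and 55 in Treg cells. Csf2, the GM-CSF gene, stood at 8.38 CPM in Th17 cells, 2.25 CPM in Treg cells, 1.95 CPM in Th0 cells and 0.816 CPM in naive cells. Fasl, the death ligand gene and a reported target of Egr2 and Egr3, stood at 24.5 CPM in Th17 cells, 64.1 CPM in Treg cells, 18.2 CPM in Th0 cells and 16.5 CPM in naive cells. It was thus high in Treg cells, where Egr2 was low and Egr3 was not. Tnf stood at 43.1 CPM in Th17 cells, 33.7 CPM in Treg cells, 4.58 CPM in Th0 cells and 21.4 CPM in naive cells, low in Th0 cells as Egr1 and Egr3 were. Il2 was low everywhere, at 1.60 CPM in Th17 cells, 4.96 CPM in Treg cells, 3.44 CPM in Th0 cells and 1.14 CPM in naive cells, and Il3 had no count in Th0 or naive cells.

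Of 11 genes linked to Nr4a factors in regulatory or exhausted T cells, 5 were higher and 2 lower in Th17 over Th0 cells, and 5 higher and 3 lower in Treg over Th0 cells, beside 32.5% and 32.2% of all genes called in either direction. Nr4a3 itself was lower in Th17 than in Th0 cells and was not called in Treg over Th0 cells. Irf4 stood at 995 CPM in Th17 cells, 685 CPM in Treg cells, 83.6 CPM in Th0 cells and 92.8 CPM in naive cells. Pdcd1, which encodes PD-1, stood at 13.1 CPM in Th17 cells, 21.9 CPM in Treg cells, 1.60 CPM in Th0 cells and 18.6 CPM in naive cells. Neither gene followed Nr4a3, which was high in Th0 cells. Tigit and Bcl2l11 were, like Nr4a3, highest in Th0 cells. Tigit stood at 24.54 CPM in Th17 cells, 15.42 CPM in Treg cells, 42.7 CPM in Th0 cells and 13.96 CPM in naive cells. Bcl2l11 stood at 68.36, 41.03, 156 and 69.89 CPM in the same order. These were the 2 of the 11 called higher in Th0 than in naive cells, as Nr4a3 was, near the 18.5% of all genes called higher. In the same comparison 5 were lower, beside 27.2% of all genes. Unlike Nr4a3, Tigit and Bcl2l11 were called lower in Treg than in Th0 cells.

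Around Nfil3, 14 genes of the clock and of the PAR bZIP family that shares its DNA sites gave 2 higher and 0 lower among 13 tested in Th17 over Treg cells, Per2 among them, where 1.91% of all genes were higher. The list held 4 higher and 1 lower among 13 tested in Th17 over Th0 cells (20.1% and 12.4% of all genes), 5 higher and 1 lower among 13 tested in Treg over Th0 cells (20.2% and 12%), where Nfil3 was not called, and 4 higher and 0 lower among 14 tested in Th17 over naive cells (15.5% and 17.7%). Dbp, an activator at the sites that Nfil3 represses, stood at 56.9 CPM in Th17 cells, 78.3 CPM in Treg cells, 58.6 CPM in Th0 cells and 18.8 CPM in naive cells. Per2 stood at 8.84 CPM in Th17 cells, 3.43 CPM in Treg cells, 0.916 CPM in Th0 cells and 15.5 CPM in naive cells, and Per1 at 87.9 CPM in Th17 cells, 76.4 CPM in Treg cells, 332.5 CPM in Th0 cells and 128 CPM in naive cells. Per2 was called higher in Th17 than in Th0 cells, as Nfil3 was, and Per1 was the 1 gene of the list called lower there.

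Likeness of pattern was measured as the Euclidean distance between log2 profiles over the 4 libraries, each centred on its own mean, among 9867 genes with at least 10 CPM in 1 library. Among the 10 genes themselves Nr4a1 and Nfatc2 were closest (0.40), followed by Nr4a2 and Nfatc1 (0.59), while Egr1 and Nr4a3 were furthest apart (5.76). Egr1 and Egr3 lay 0.89 apart, and Egr2 lay 1.80 from Egr1 and 1.96 from Egr3. The nearest other gene was Junb for Egr1 (0.20), Ccdc137 for Egr2 (0.49), Adpgk for Egr3 (0.10), Ulk3 for Nr4a1 (0.06), Cd83 for Nr4a2 (0.08) and Fignl1 for Nr4a3 (0.48). It was Ermp1 for Nfatc1 (0.08), Tbl3 for Nfatc2 (0.06), Nufip2 for Nfatc3 (0.03) and Malt1 for Nfil3 (0.26). Junb, an AP-1 subunit and immediate early gene, stood at 581 CPM in Th17 cells, 419.6 CPM in Treg cells, 107.5 CPM in Th0 cells and 1910 CPM in naive cells. Malt1, which carries the receptor signal to NF-κB, stood at 1259 CPM in Th17 cells, 716 CPM in Treg cells, 591 CPM in Th0 cells and 219 CPM in naive cells. With only 4 points, many genes share a profile, and a small distance is a description of these libraries. Egr2 and Nr4a3, both called in Th17 over Treg cells, had the most distant nearest genes of the 10.

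Scaling bore on every comparison with Th0 cells. With library totals in place of TMM factors the median log2 ratio of all genes moved by 0.28 in Th17 over Th0 cells, by 0.31 in Treg over Th0 cells and by -0.25 in Th0 over naive cells. Of all called genes, 61.9% were higher in Th17 over Th0 cells with TMM factors and 79.3% with library totals, 62.7% against 81.8% in Treg over Th0 cells, and 40.5% against 29.6% in Th0 over naive cells. Of the 10 genes, 3 were higher and 2 lower in Treg over Th0 cells with TMM factors, and 3 higher and 0 lower with library totals. The calls of Egr1 and Egr3 over Th0 cells held under 4 of 4 scalings.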

How the data were processed

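RNA of 4 libraries of mouse CD4+ T cells was analysed. The authors deposited whole-number counts per gene and, per the file headers, FPKM values. The submitters' processing notes name RSEM and Bowtie2 with the builds mm10 and GRCm38.p6, but no versions or roles. For the annotation, strandedness and read length nothing was given in the sources used here. The FPKM equalled count over length and table total for 8988 of 8988 genes (tolerance 0.1%), but that length exceeded the locus span in 788 of 12029 genes.

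TMM factors (edgeR 4.0.16, R 4.3.3) came from genes with at least 10 counts. Log2 ratios were taken after adding 1 CPM, which understates low genes, and folds without it. Genes with at least 10 counts in 1 of the 2 libraries compared were tested for size. Intervals of levels were exact Poisson and of ratios exact conditional (Clopper-Pearson), at 95%. No molecular identifiers are named in the sources used here, so these cover counting error only. One count was worth 0.0762 to 0.114 CPM, and 3 counts 0.229 to 0.343 CPM.

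All 10 genes are named in each comparison, and from each list up to 3 called genes with the largest ratios per comparison and genes at 0. Some genes that this rule names are not reported here. The genes and lists were chosen with earlier results of these data known. Of 34745 gene identifiers 34344 were in GENCODE vM21. Promoters of 7 of the 10 genes were read from RefSeq, and those of the other 3 were not analysed here. No transcript of another gene aligned to a member over 300 nt at 95% identity (minimap2 2.31). Alternatives were library totals, size factors of DESeq2 1.42.0, upper quartile scaling, FPKM with 1 FPKM added, and other pseudocounts, filters and folds. Scripts ran in Python 3.11.15 with scipy 1.17.1, pandas 2.3.3, matplotlib 3.10.9 and numpy 2.4.6.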

Additional observations from a re-analysis of the deposited data

Results flagged for a closer look

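Nfatc3 went opposite ways against the shared naive library. Its log2 ratio was 0.63 in Th0 over naive cells, -0.35 in Th17 over naive cells and -0.40 in Treg over naive cells, each with a counting interval that excluded 0. None of these ratios reached 2-fold, and the difference between them was not tested, since each group has 1 library. The level was 298 CPM in Th17 cells, 288 CPM in Treg cells, 587 CPM in Th0 cells and 379 CPM in naive cells.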

How the results depend on the processing

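No paired analysis was possible because each group has 1 library, and for the same reason no library could be left out. Of 360 values of the 10 genes under other scalings, FPKM or pseudocounts, 278 stayed within the counting interval of the reported ratio, 342 kept their call, and no called gene changed direction. In Th17 over Th0 cells 7 genes were called, and 4 when a call needed 3-fold. Of all 13324 genes tested there, 4332 and 1721 were called. In Treg over Th0 cells 5 were called, 3 with library totals, 3 with upper quartile scaling and 3 with FPKM, as Nr4a2 and Nfatc3 were lost, and 2 at 3-fold. Of all 13138 genes tested there, 4225 were called, 4439 with library totals, 4224 with upper quartile scaling, 2760 with FPKM and 1591 at 3-fold. At 3-fold the 7 genes of Th0 over naive cells became 4, beside 3473 of all 13995 genes tested. The 6 of Th17 over naive cells became 3, beside 2626 of 14523, and the 6 of Treg over naive cells 3, beside 2460 of 14350. Fewer calls at 3-fold follow from the stricter rule. The cause of the scaling differences was not tested. In Th17 over Th0 cells Nr4a1 was called with library totals and with FPKM, Nfatc3 with DESeq2 size factors, Nfil3 was lost with DESeq2 size factors and with a pseudocount of 4 CPM, and Nr4a2 was lost with FPKM. In Treg over naive cells Nr4a2 was lost with FPKM and with a pseudocount of 4 CPM, and in Th17 over naive cells Egr3 was lost with a pseudocount of 4 CPM. Nfatc1 was called lower in Th0 than in naive cells with library totals and with FPKM. The FPKM setting added 1 FPKM, which shrinks the ratios of genes with low FPKM, among them Nr4a2 at 1.29 to 3.93 FPKM. The 3 calls of Th17 over Treg cells held under every scaling, pseudocount and count filter run, and Nfil3 was lost at 3-fold. Depth limits Egr2 and Egr3 in Th0 cells, at 33 and 15 counts.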
